A study of Mus musculus with 4 samples.

Results

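The 10 genes described here encode secreted inflammatory proteins. They are the chemokines Ccl2, Ccl5, Ccl7, Cxcl1, Cxcl5 and Cxcl10 and the cytokines Il6, Lif, Csf1 and Csf2. A probe set belonged to the group where the platform annotation gave it exactly 1 gene symbol and that symbol was on this list, whatever its signal. All 10 genes were found among the 19938 genes with such a probe set, each with 1 probe set. The 4 samples were mouse embryonic fibroblasts of C57BL/6 background, prepared from embryos at E13.5, which all carried a double knockout of BAX and BAK and had been transformed with SV40. One culture had received a retrovirus for p63 and the other a retrovirus for GFP. Each line was exposed to etoposide, which poisons topoisomerase II and so leaves breaks in DNA, or was mock-treated, in both cases for 6 h. The labels give the dose as 10 µg/mL in one place and as the same number per microlitre in another. With 1 array per condition, no value has a replicate, and differences are described by size, without a test.

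Chemokines are small secreted proteins that direct the movement of leukocytes along a gradient. CC chemokines such as CCL2 mainly draw monocytes and T cells, and CXC chemokines with an ELR motif, such as CXCL1 and CXCL5, mainly draw neutrophils. CXCL10, which lacks that motif, draws activated T cells through CXCR3 and is induced by interferon. IL-6 and LIF signal through receptors that share gp130 and activate STAT3, whereas CSF1 and CSF2 support the growth of macrophages and granulocytes. Fibroblasts make many of these proteins when NF-kB, AP-1 or interferon signalling is active, and damaged or senescent fibroblasts are known to secrete them. The large T antigen of SV40 inactivates p53 and retinoblastoma proteins, and cells without BAX and BAK do not permeabilise their mitochondria in apoptosis, which limits these cells as a model of unmodified fibroblasts.

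The signal is the deposited RMA value on the log2 scale, so that a difference of 1 is a 2-fold change, and differences of that size or more are called higher or lower. The brightness filter asked for at least 1 array at or above 5.87, the median of all values of single-symbol probe sets. It kept 10698 genes and 8 of the 10 listed ones. The Trp63 signal was 9.29 and 8.75 in etoposide-treated and mock-treated p63 cells, against 5.59 and 4.87 in the corresponding GFP cells. One array, that of the mock-treated p63 cells, differed most from the others: on it 78 kept genes lay at least 1 from every other array while the spread of those was at most 0.5, and any other array had 22 or fewer such genes. Of the listed genes Csf1 met this criterion. The etoposide comparison in p63 cells and the p63 comparison in mock-treated cells both use that array, so a high value in the first and a low value in the second are not separate observations. Without it, the etoposide comparison in GFP cells and the p63 comparison in etoposide-treated cells remain.

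Markers of the labelled cell type were checked beside those of cells that could also supply chemokines. Of 10 fibroblast markers 6 were kept, with Col1a2 between 11.30 and 12.12 on all arrays, and Pdgfra, Thy1, Dcn and Lum were below the filter on every array. Of 12 haematopoietic and macrophage markers, 10 were below the filter on every array, among them Ptprc, Adgre1, Itgam and Csf1r. The remaining pair, Cd68 and Cd14, was higher after etoposide: Cd14 by 2.03 in p63 cells and 1.70 in GFP cells, and Cd68 by 1.68 and 0.72. Their mock readings in p63 cells, and that of Cd14 in GFP cells, were below the filter, and with these raised Cd14 stood at 0.95 and 1.41 and Cd68 at 1.00 and 0.72. The summed linear signal of the 12 markers was 414 in etoposide-treated and 262 in mock-treated p63 cells, and 457 and 290 in the corresponding GFP cells. The part of these 2 markers in the chemokine differences was not tested. All 6 endothelial markers were below the filter on every array. Of 7 epithelial markers Epcam, Cdh1, Krt18 and Cldn7 were below the filter on every array, and 3 keratin genes were kept. Krt5 and Krt14, keratins of basal epithelium, were higher with p63 than with GFP by 4.48 and 4.72 after etoposide and by 4.68 and 4.94 after mock treatment. Their GFP readings were below the filter, and with these raised the differences were 3.85 and 4.40 after etoposide and 4.02 and 4.28 after mock treatment. Krt8, a keratin of simple epithelium, stood at -0.28 after etoposide and 1.01 after mock treatment. The summed linear signal of the 7 markers was 2275 in etoposide-treated and 2351 in mock-treated p63 cells, and 303 and 252 in the corresponding GFP cells. Their part in the p63 differences of the chemokines was not tested. In RNA from whole cultures, fewer cells that express a gene and less of its RNA per cell cannot be told apart.

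The bases before the start site are shown because several of the genes were called higher after etoposide in p63 cells. NF-kB, AP-1 and interferon-regulated factors are also known to act on these genes. RefSeq windows (GRCm38.p6) of 250 bases ending at the start site were matched for 6 of the 10 genes. They were searched on both strands for the kappa-B consensus bound by NF-kB, the AP-1 motif TGANTCA, the core of the interferon-stimulated response element (GAAA, any 2 bases, then GAAA), the C/EBP motif TTGCNNAA, the cyclic AMP response element TGACGTCA and the STAT motif TTCNNNGAA. Capitals mark the matches in the 4 windows below, each read 5′ to 3′ on the strand of its gene. Cxcl10 (chr5:92348890-92349139, minus strand) and Csf1 (chr3:107760470-107760719, minus strand) were the 2 genes whose etoposide difference was largest in p63 cells relative to GFP cells. Lif (chr11:4257318-4257567, plus strand) and Csf2 (chr11:54249900-54250149, minus strand) were called higher after etoposide in both lines, Csf2 from mock readings below the filter.
Cxcl10: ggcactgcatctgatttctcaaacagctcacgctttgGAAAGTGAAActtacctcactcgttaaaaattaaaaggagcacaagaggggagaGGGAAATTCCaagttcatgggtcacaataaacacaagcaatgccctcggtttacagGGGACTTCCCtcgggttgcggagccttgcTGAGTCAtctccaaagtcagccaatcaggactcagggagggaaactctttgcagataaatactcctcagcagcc
Csf1: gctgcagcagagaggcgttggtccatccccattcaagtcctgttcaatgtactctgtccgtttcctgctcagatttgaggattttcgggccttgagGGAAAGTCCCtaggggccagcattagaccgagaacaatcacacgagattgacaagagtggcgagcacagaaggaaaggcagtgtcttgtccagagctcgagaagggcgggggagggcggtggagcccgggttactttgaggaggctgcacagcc
Lif: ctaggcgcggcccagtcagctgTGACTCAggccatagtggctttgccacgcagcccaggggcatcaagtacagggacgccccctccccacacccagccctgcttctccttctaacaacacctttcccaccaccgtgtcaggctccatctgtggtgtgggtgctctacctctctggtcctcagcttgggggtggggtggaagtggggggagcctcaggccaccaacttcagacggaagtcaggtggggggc
Csf2: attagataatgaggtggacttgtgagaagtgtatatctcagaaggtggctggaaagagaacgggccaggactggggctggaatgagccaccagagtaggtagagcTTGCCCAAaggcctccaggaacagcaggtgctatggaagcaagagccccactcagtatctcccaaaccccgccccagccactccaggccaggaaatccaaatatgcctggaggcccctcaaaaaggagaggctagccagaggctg

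The Cxcl10 window held 3 kinds of match, the interferon element GAAAGTGAAA, the kappa-B matches GGGAAATTCC and GGGACTTCCC, and the AP-1 match TGAGTCA. The interferon element lay 213 to 204 bases before the start site, the kappa-B matches 159 to 150 and 103 to 94 bases before it, and the AP-1 match 74 to 68 bases before it. In Csf1 the capitals mark GGAAAGTCCC, a kappa-B match on the opposite strand, in Lif the AP-1 match TGACTCA, and in Csf2 the C/EBP match TTGCCCAA. The windows of Cxcl1 and Il6 each held a kappa-B match as well, GGGAATTTCC and GGGATTTTCC. In Cxcl1 the match overlaps another on the other strand and the Il6 window also held an AP-1 and a C/EBP match. The kappa-B consensus thus stood in 4 of the 6 windows, against 3.9% of all 32851 windows in the table. Of the genes of those windows, Il6 was below the filter on every array and Cxcl1 was not called in any comparison. The AP-1 motif stood in 3 of 6 and in 6.75% of all windows, the interferon element in 1 of 6 and 2.98%, and the C/EBP motif in 2 of 6 and 9.56%. The cyclic AMP element and the STAT motif were not found in the 6 windows and occurred in 1.55% and 7.02% of all. The kappa-B, AP-1 and interferon motifs were chosen because their factors are known to act on these genes. Shares above those of all windows follow from that choice and test nothing. A match describes the letters and does not show binding.

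Among the CC chemokines, the etoposide differences of Ccl2, Ccl7 and Ccl5 were positive in both lines, from 0.18 to 2.11. They reached 1 for Ccl2 in both lines and for Ccl5 in p63 cells, and for Ccl7 in neither line. CCL2 is the main attractant of monocytes through the receptor CCR2. The Ccl2 signal (probe set 10379511) was 8.85 after etoposide and 6.74 after mock treatment in p63 cells, and 9.46 and 8.42 in the corresponding GFP cells. The mock-treated p63 cells were the lowest and the etoposide-treated GFP cells the highest. Ccl2 was thus higher after etoposide by 2.11 in p63 cells, which is 4.31-fold, and by 1.04 in GFP cells, which is 2.05-fold. With p63 it was lower than with GFP at -1.68 in mock-treated cells and stood at -0.61 in etoposide-treated cells. Its etoposide difference was larger by 1.07 in p63 cells.

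Ccl7 (probe set 10379518), whose product binds CCR2 among other receptors, had smaller differences than Ccl2 in each comparison except p63 against GFP after etoposide. Its signal was 6.88 and 6.32 in etoposide-treated and mock-treated p63 cells, against 7.54 and 7.36 in the corresponding GFP cells. Both p63 arrays were below both GFP arrays. Its etoposide difference was 0.56 in p63 cells and 0.18 in GFP cells, neither of which reached 1. The p63 difference was -0.66 in etoposide-treated cells and -1.04 in mock-treated cells, just past the threshold.

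Ccl5 (probe set 10389207), which encodes RANTES, an attractant of T cells and monocytes that is also induced by interferon, was the listed gene most separated by the virus after etoposide. It read 7.13 after etoposide and 6.10 after mock treatment in p63 cells, and 9.26 and 8.87 in the corresponding GFP cells. The lower GFP reading was well above the higher p63 reading. With p63 the Ccl5 signal was lower at -2.13 in etoposide-treated cells, which is 4.37-fold lower, and at -2.77 in mock-treated cells, which is 6.80-fold lower. These values ranked 9 and 25 from the lowest of the 10698 kept genes. The etoposide difference was 1.03 in p63 cells and 0.39 in GFP cells.

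Among the CXC chemokines Cxcl10 stood out by size, Cxcl1 differed little, and Cxcl5 was not measured above the filter. The Cxcl10 signal (probe set 10531415) was 10.15 after etoposide and 7.05 after mock treatment in p63 cells, against 10.98 and 10.43 in the corresponding GFP cells. The mock-treated p63 cells lay far below the other arrays. Cxcl10 was higher after etoposide by 3.10 in p63 cells, which is 8.55-fold and ranked 2 of the 10698 kept genes, and by 0.55 in GFP cells. With p63 the difference from GFP was -0.83 in etoposide-treated cells and -3.38 in mock-treated cells, which ranked 10 from the lowest. The etoposide difference in p63 cells exceeded that in GFP cells by 2.55, rank 4 of all kept genes.

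Cxcl1 (probe set 10523151), whose product attracts neutrophils through CXCR2, read 7.65 and 7.09 in etoposide-treated and mock-treated p63 cells and 7.81 and 7.34 in the corresponding GFP cells. Its etoposide differences of 0.55 in p63 cells and 0.47 in GFP cells were close to one another and below the threshold. The p63 difference was -0.16 after etoposide and -0.24 after mock treatment. Cxcl5 (probe set 10523120), another CXCR2 ligand, was below the filter on every array. It read 3.61 and 4.14 in etoposide-treated and mock-treated p63 cells, against 3.54 and 4.16 in the corresponding GFP cells. Differences at such readings rest on signal near background.

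**Figure D1:**
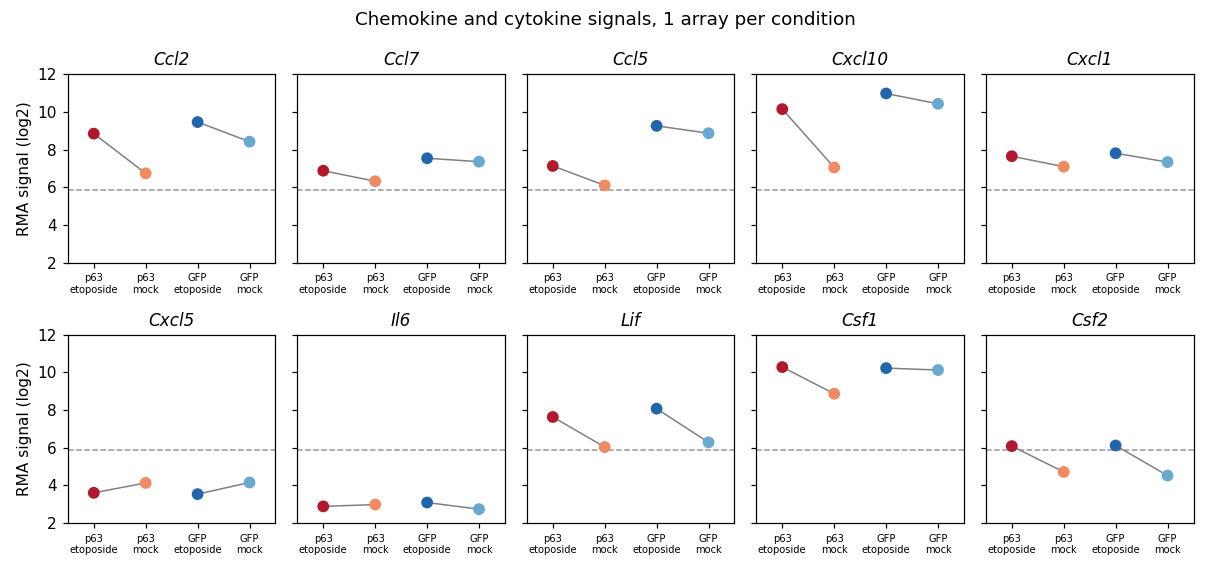
RMA signal (log2, vertical axis) of each of the 10 genes on the 4 arrays (horizontal axis), with 1 point per array, a line joining the treatments of a line and the brightness filter of 5.87 dashed. Cxcl10 lies between 10.15 and 10.98 on 3 arrays and at 7.05 in mock-treated p63 cells, while Cxcl5 and Il6 stay below the filter throughout.

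The gp130 cytokines differed from one another in level of detection. Il6 (probe set 10520452) was below the filter on every array, at 2.89 after etoposide and 2.99 after mock treatment in p63 cells, and 3.10 and 2.74 in the corresponding GFP cells. No difference of Il6 can be read at these signals. Lif encodes leukemia inhibitory factor, which keeps mouse embryonic stem cells undifferentiated and is a known target of p53. The Lif signal (probe set 10373918) was 7.63 and 6.04 in etoposide-treated and mock-treated p63 cells, against 8.07 and 6.29 in the corresponding GFP cells. Both etoposide arrays were above both mock arrays. The difference was 1.59 in p63 cells, which is 3.02-fold and ranked 164 of the kept genes, and 1.79 in GFP cells, which is 3.45-fold and ranked 71. With p63 the Lif signal differed from that with GFP by -0.44 after etoposide and -0.25 after mock treatment.

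The colony-stimulating factors showed contrasting patterns. Csf1 (probe set 10501164), the growth factor of macrophages, read 10.28 after etoposide and 8.87 after mock treatment in p63 cells, and 10.23 and 10.12 in the corresponding GFP cells. The mock-treated p63 cells were lower than the other arrays, which lay close together. The etoposide difference of Csf1 was 1.41 in p63 cells and 0.10 in GFP cells, and the p63 difference was 0.05 after etoposide and -1.26 after mock treatment. All of the Csf1 calls use the array of mock-treated p63 cells.

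Csf2 (probe set 10385912), which encodes GM-CSF, read 6.09 after etoposide and 4.72 after mock treatment in p63 cells, against 6.12 and 4.53 in the corresponding GFP cells. Both etoposide arrays were just above the filter and both mock arrays below it. The etoposide difference was 1.37 in p63 cells and 1.60 in GFP cells. Since Csf2 was kept only through its etoposide readings, it had to differ. With the mock readings raised to the filter it was at least 1.16-fold higher in p63 cells and at least 1.19-fold higher in GFP cells. The p63 difference was -0.03 after etoposide and 0.19 after mock treatment.

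Counted over the list, 6 of the 10 genes were called higher after etoposide in p63 cells, where 6.28% of kept genes were called higher. Calls were made among kept genes, so Cxcl5 and Il6 could not be called in this or the later counts. None of the 10 was called lower, as 1.33% of kept genes were. The 6 were Ccl2, Ccl5, Cxcl10, Lif, Csf1 and Csf2. In GFP cells 3 of 10 were called higher, namely Ccl2, Lif and Csf2, against 3.52% of kept genes, and 0 were called lower, against 2.12%. Those 3 were called higher in both lines, as were 2.57% of kept genes, while 0 were lower in both, as were 0.608%. Csf2 counts here only through its dim mock readings. With dim readings raised to the filter the counts were 5 in p63 cells, 2 in GFP cells and 2 in both, against 5.46%, 2.70% and 2.07% of kept genes. Over the 8 kept genes the median etoposide difference was 1.39 in p63 cells and 0.51 in GFP cells, where the medians of all kept genes were 0.10 and -0.08. Over all 10 listed genes, without the filter, the medians were 1.20 and 0.43, where all named genes had -0.03 and 0.04. Ccl5 at 1.03 and Ccl2 in GFP cells at 1.04 lay just inside the threshold. With arrays centred on their medians Ccl2 stood at 0.92 in GFP cells, and with cyclic loess Ccl5 stood at 0.94 in p63 cells.

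**Figure D2:**
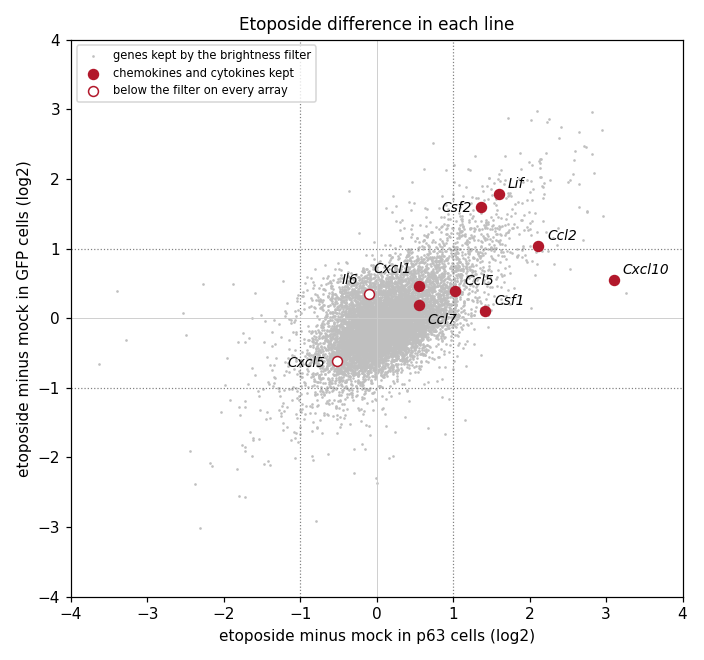
Etoposide minus mock (log2) in p63 cells (horizontal axis) against that in GFP cells (vertical axis), with grey points for kept genes, filled red points for the 8 listed genes kept, open points for those below the filter and dotted lines at the threshold of 1. Lif, Csf2 and Ccl2 are past 1 in both lines, and Cxcl10 lies at 3.10 in p63 cells and 0.55 in GFP cells.

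All calls of p63 against GFP among the listed genes were lower with p63. After etoposide only Ccl5 was called, lower with p63, as were 0.514% of kept genes. In mock-treated cells 5 of the 10 genes were called lower with p63, namely Ccl2, Ccl5, Ccl7, Cxcl10 and Csf1, against 3.76% of kept genes. No listed gene was called higher with p63 under either treatment, where 1.38% of kept genes were so called after etoposide and 2.42% after mock treatment. Ccl5 was called lower under both treatments, like 0.486% of kept genes. The median over the 8 kept genes was -0.53 after etoposide and -1.15 after mock treatment, against 0.02 and -0.14 for all kept genes. Over all 10 listed genes it was -0.32 and -0.64.

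**Figure D3:**
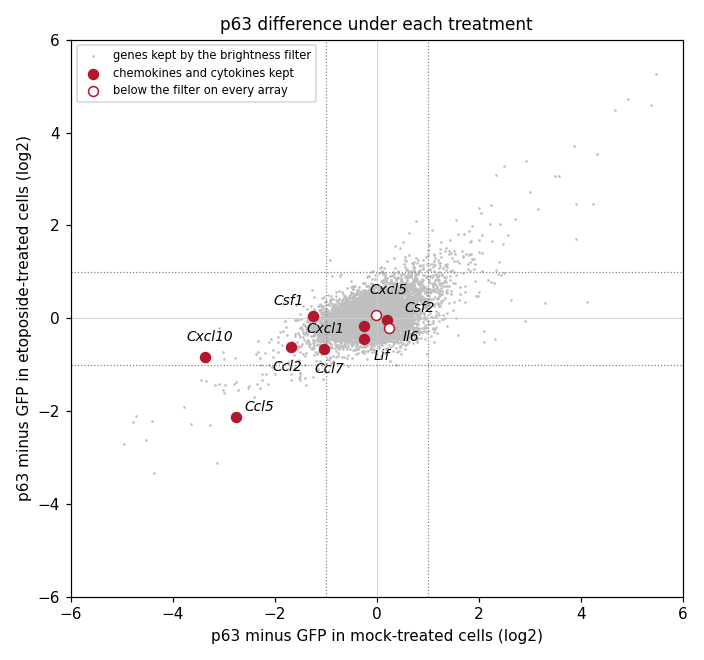
p63 minus GFP (log2) in mock-treated cells (horizontal axis) against that in etoposide-treated cells (vertical axis), with symbols and dotted lines as in the plot of the etoposide differences. Ccl5 lies past -1 on both axes, while Cxcl10, Ccl2, Ccl7 and Csf1 do so in mock-treated cells and not after etoposide.

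The difference of the etoposide differences, p63 minus GFP, reached 1 for Cxcl10 (2.55), Csf1 (1.31) and Ccl2 (1.07), 3 of the 10 genes against 2.84% of kept genes. It was not below -1 for any listed gene, where 1.09% of kept genes were. Ccl5 stood at 0.64, Ccl7 at 0.38 and Cxcl1 at 0.09, and Lif and Csf2 at -0.19 and -0.22. The median of all kept genes was 0.20, so Ccl7 and Cxcl1 lay within about 0.2 of it. With cyclic loess between arrays Ccl2 stood at 0.84. The difference of differences also uses the array of mock-treated p63 cells. Its high values are therefore not observations separate from the calls that rest on that array.

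Most other chemokines of a fixed list were not measured above the filter. Of 15 further CC chemokines with a probe set, 14 were below it on every array, and of 13 further CXC and CX3C chemokines 10 were. Those kept were Ccl25, Cxcl12, Cxcl16 and Cx3cl1. Cx3cl1, the membrane-tethered chemokine fractalkine, was higher after etoposide by 1.01 in p63 cells and 0.68 in GFP cells. Cxcl12, a constitutive chemokine of stromal cells, ran opposite to the inflammatory ones after etoposide, at -0.38 in p63 cells and -0.997 in GFP cells, just short of the threshold. With p63 it stood at -0.65 after etoposide and -1.27 after mock treatment.

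Of 19 further cytokines with a probe set 7 were kept, and Il15, which supports natural killer and memory T cells, was called higher after etoposide in both lines, at 1.56 in p63 cells and 1.22 in GFP cells. Its mock readings were below the filter, and with them raised it stood at 0.51 and 0.87. Tnf, Il1a, Il1b, Ifnb1 and Csf3 were below the filter on every array. Among 19 receptors of the listed and related proteins 6 were kept. Il6ra, the ligand-binding chain of the IL-6 receptor, was higher after etoposide by 1.63 in p63 cells and 1.43 in GFP cells. Lifr, the receptor of LIF, was higher with p63 than with GFP by 1.22 after etoposide and 1.51 after mock treatment. The chemokine receptors Ccr1, Ccr2, Ccr3, Cxcr1, Cxcr2 and Cxcr3 were below the filter on every array, as was Csf1r.

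The regulators upstream of these genes were described in the same way. Of 13 kept NF-kB subunits and inhibitors, 4 were called higher after etoposide in p63 cells and 1 in GFP cells, with medians of 0.66 and 0.05, where 6.28% and 3.52% of all kept genes were called higher. One of the 4, Nfkbie, another inhibitor, stood at 1.07 in p63 cells from a dim mock reading and at 0.23 with it raised. Nfkbia, the inhibitor that NF-kB induces in feedback, was higher by 2.36 in p63 cells and 1.05 in GFP cells, and its p63 difference was 0.40 after etoposide and -0.91 after mock treatment. Of 11 kept AP-1 and C/EBP factors, 6 were called higher in p63 cells and 3 in GFP cells, with medians of 1.14 and 0.55. Atf3 stood at 1.96 and 1.98 and Junb at 1.14 and 1.20 in p63 and GFP cells. Fos, at 2.64 and 1.60, was below the filter in both mock-treated lines and stood at 1.75 and 0.85 with those readings raised. Medians of both lists were higher in p63 cells, as was that of all kept genes.

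Interferon signalling and interferon-stimulated genes, the list closest to the known regulation of Cxcl10 and Ccl5, are set beside these chemokines. Of 16 kept, 1 was called higher and 1 lower after etoposide in p63 cells, against 6.28% and 1.33% of all kept genes. In GFP cells 0 were called higher and 10 lower, against 3.52% and 2.12%. The list medians were -0.09 in p63 cells and -1.04 in GFP cells. Cxcl10 stood at 3.10 and 0.55 and Ccl5 at 1.03 and 0.39 in the same comparisons. Ifit1, a sensor of viral RNA ends, stood at 1.15 in p63 cells, or 0.68 with its dim mock reading raised to the filter, and -1.46 in GFP cells. With p63, 11 of 16 were called lower after etoposide and 13 of 16 after mock treatment, with medians of -1.35 and -2.59, where 0.514% and 3.76% of all kept genes were called lower. Several of these genes passed the filter only through GFP arrays. With dim readings raised, 8 and 12 were called lower, with medians of -1.02 and -2.29, against 0.290% and 3.12% of kept genes. Irf7, a transcription factor of the interferon response, stood at -2.29 and -3.27, or -2.19 and -2.85 with its dim p63 readings raised, and Bst2, an antiviral membrane protein, at -3.12 under both treatments. Here Ccl5, at -2.13 and -2.77, and Cxcl10, at -0.83 and -3.38, had the same sign as the list.

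Downstream of the gp130 cytokines, 12 JAK-STAT3 genes were kept and had medians near 0 in both lines after etoposide, at 0.00 in p63 cells and 0.11 in GFP cells. Of them 1 was called higher in p63 cells and 2 in GFP cells, against 6.28% and 3.52% of all kept genes. With dim readings raised to the filter 1 was called higher in each line, against 5.46% and 2.70%. Cish, a feedback inhibitor of cytokine receptors, was called higher in both lines, at 1.57 and 1.21, and at 1.06 and 0.50 with its mock readings raised to the filter. The other gene called in GFP cells was Socs3, the feedback inhibitor that STAT3 induces, which was singled out after its values were seen. It stood at 0.46 in p63 cells and 1.21 in GFP cells and was above the filter on all arrays. Among 11 regulators of the decay of AU-rich cytokine mRNAs, 1 was called higher after etoposide in p63 cells and 0 in GFP cells. Of all kept genes 6.28% and 3.52% were called higher in these comparisons. The regulator called was Zfp36l1, which promotes such decay, at 2.07 in p63 cells and 0.62 in GFP cells. Elavl1, which encodes the stabilising protein HuR, stood at 0.59 and -0.08.

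**Figure D4:**
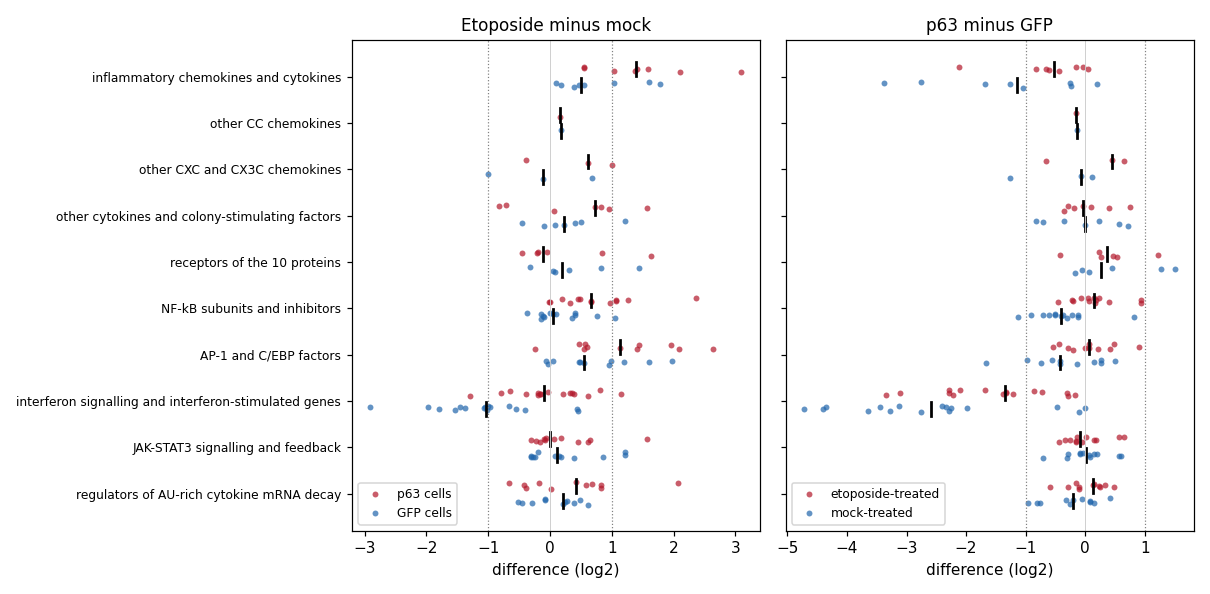
Differences (log2, horizontal axis) of the kept genes of each list (rows), with 1 point per gene, black bars at the medians and dotted lines at 1 and -1. The left panel gives etoposide minus mock in p63 cells (red) and GFP cells (blue), and the right panel p63 minus GFP in etoposide-treated (red) and mock-treated cells (blue). The listed chemokines and cytokines have medians of 1.39 and 0.51 on the left, and the interferon list -1.35 and -2.59 on the right.

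Genes with the most similar profile were sought by the Euclidean distance over the 4 arrays, after each gene's mean was subtracted. For Ccl2 the nearest was Fosl1, an AP-1 subunit, at a distance of 0.08. Only 8 of the kept genes lay within 0.5 of Ccl2. For Ccl5 and Cxcl10, 1 kept gene lay within that distance of each. These were Lgals9, a galectin, at 0.41 from Ccl5, and Snrpg, a spliceosomal protein gene, at 0.48 from Cxcl10. Lif had 63 such neighbours, with Mapkapk3 nearest at 0.11, and Csf2 had 168, with Acad8 nearest at 0.04. Csf1 had 283, Ccl7 524 and Cxcl1 2880, so that the nearest genes of these, Smcr8, Exosc5 and H2-Eb1, are among many alike. The distances from Csf2 rest on mock readings below the filter. With 4 arrays a small distance is a description of these samples.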

How the data were processed

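Total RNA of 4 cultures was prepared with Trizol, turned into biotinylated cDNA with a NuGEN Ovation kit and measured on Affymetrix Mouse Gene 1.0 ST arrays, per the labels' protocols and design text. The deposited values are log2 signals; per the submitters' processing notes the authors ran RMA in Affymetrix Expression Console. Versions were not stated, and the log base was inferred from their range, 1.27 to 14.4. RMA makes the probe intensity distributions of arrays equal, so a shift shared by most genes is largely removed. The summarised values were still not fully alike. Their standard deviation was 2.28 in mock-treated p63 cells and 2.37 to 2.39 on the other arrays. The median signal of kept genes was 7.48 in mock-treated p63 cells and 7.60 to 7.69 on the others. Depth does not apply, and precision is limited by having 4 arrays.

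Of 35512 probe sets a 2016 annotation gave exactly 1 symbol for 21789, several for 1621 and none for 12102. Symbols were updated through Entrez identifiers in RefSeq (GRCm38.p6), where 21698 matched. For a gene with several probe sets the one with the highest mean was used. The position of the probes within a gene was not stated. A difference of at least 1 was called, with no p-value. An additive model of virus and treatment was not fitted.

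The members, lists and rules were chosen with earlier results of these data known. Genes were named by a rule: all 10 members and Trp63, the genes of each of 9 companion lists called in both pairs of an effect (otherwise up to 2 with the largest mean difference), and up to 2 nearest profiles per kept member. One gene that this rule names is not reported here. Dim genes, receptors without a call and lists' other members are named only as below the filter. Of the genes on the companion lists, 8 are not analysed here. Alternatives were 2 other filters, a 1.5-fold threshold, the median of probe sets, centred arrays, cyclic loess and dim readings raised to the filter. The calling code was tested on simulated data. Python 3.11.15, pandas 2.3.3, numpy 2.4.6 and R 4.3.3 with limma 3.58.1 were used.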

Additional observations from a re-analysis of the deposited data

Results flagged for a closer look

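Some genes differed in opposite directions in the pairs of a comparison, with 1 array per condition, and the difference of direction was not tested. For Csf1 the p63 difference was 0.05 after etoposide and -1.26 after mock treatment, 1.31 apart. For Csf2 it was -0.03 and 0.19, -0.22 apart, with both mock readings below the filter. Il6 and Cxcl5 were below the filter on every array. The Il6 values were -0.20 after etoposide and 0.24 after mock treatment, and its etoposide difference was -0.10 in p63 cells and 0.35 in GFP cells, each pair -0.45 apart. The p63 difference of Cxcl5 was 0.07 and -0.02, 0.09 apart.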

How the results depend on the processing

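No paired analysis was possible within a comparison because each condition had 1 array, and an additive model that takes lines or treatments as pairs was not fitted. Of 100 list counts and medians recomputed under the alternatives, 95 stayed within 1.5 times the count or within 0.25 (log2) of the median. These 95 include the counts that were 0 as deposited and stayed 0. Among 275 recomputed values of single genes 0 called differences changed sign. Many of these could not change. Each listed gene had 1 probe set, so the other filters, the 1.5-fold threshold and the median of probe sets left its differences as they were. Under the median of probe sets the list counts and medians were fixed as well. Only centring, cyclic loess and raised dim readings could alter the value of a gene. At a 1.5-fold threshold 4 genes, Ccl2, Ccl5, Ccl7 and Cxcl10, were lower with p63 after etoposide, against 1 at 2-fold, where 1.87% and 0.514% of kept genes were so called. The median p63 difference in mock-treated cells was -0.64 without a filter, over 10 genes, and -1.68 at the 75th percentile, over 5 genes. The median difference of the etoposide differences was 0.23 and 1.07 in the same settings. These medians moved because other genes were counted. Single calls lost were Ccl5 after etoposide in p63 cells (0.995 with centred arrays, 0.94 with cyclic loess) and Ccl2 in GFP cells (0.92 with centred arrays). With cyclic loess Ccl7 in mock-treated cells (-0.94) and the difference of differences of Ccl2 (0.84) were also lost. With dim readings raised to the filter Csf2 stood at 0.22 in p63 cells and 0.25 in GFP cells. Scaling moved the median of all kept genes by over 0.1 in some comparisons: centring gave -0.21 in place of -0.08 for etoposide in GFP cells. Cyclic loess gave -0.03 in place of -0.14 for p63 in mock-treated cells and 0.05 in place of 0.20 for the difference of differences. The share higher among all genes called for etoposide in GFP cells was 62.4% as deposited and 47.8% with centred arrays. For p63 in mock-treated cells it was 39.2% and, with cyclic loess, 53.6%. For the difference of differences it was 72.2%, 83.6% with centred arrays and 61.9% with cyclic loess. Signals near background limit Csf2, Il6 and Cxcl5.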
